A study of Mus musculus with 79 samples.

Results

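The 9 genes described here carry or control ion transport across the airway epithelium: the epithelial sodium channel (ENaC) subunits Scnn1a, Scnn1b and Scnn1g, the ubiquitin ligase Nedd4l, the apical anion channels and exchangers Cftr, Slc26a4, Slc26a9 and Ano1, and the proton pump Atp12a. They were chosen by function, from a list of names, with earlier results of these data known. Each had 1 row in a table of 31350 genes. Expression was measured as log2 intensity on Affymetrix moGene2.1 arrays in RNA from whole lung homogenates of 79 mice, with 1 array for each mouse. WT mice and their βENaC littermates were of the C57BL/6J background and were 5 to 7 weeks old. βENaC mice carry a Scnn1b transgene that is overexpressed in airway epithelial cells, and no other allele was named. Smoke mice breathed mainstream and side-stream smoke of 6 reference cigarettes a day in a chamber for 1 day or for 5 consecutive days, and sham mice breathed room air in the chamber for the same time. Lungs were taken 4 h after the last exposure, and the 1-day and 5-day mice were different animals. With both sexes in every arm, this gave 16 groups of 4 to 6 mice, 40 mice at 1 day and 39 at 5 days.

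The liquid layer on the airway surface is set by sodium absorption through ENaC and by chloride and bicarbonate secretion through apical anion channels and exchangers. ENaC is built from α, β and γ subunits, and the β subunit made in excess by a transgene raises sodium absorption and dries the mucus layer, which is the basis of the βENaC mouse as a model of chronic bronchitis. The questions for these genes were how they differed between βENaC and WT lungs, how they responded to smoke after 1 or 5 days, and whether genotype, sex or duration changed that response.

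The tissue carried its defining markers, with Scgb1a1 of club cells at 13.22 ± 0.0472 (SD, n = 40) and Sftpc of alveolar type 2 cells at 12.65 ± 0.0467 (SD, n = 40) in WT mice. Foxi1 and Ascl3, the transcription factors of the pulmonary ionocyte, a rare cell rich in Cftr, were at 3.47 ± 0.145 and 3.41 ± 0.206 (SD, n = 40), below the array medians of 4.44 to 4.55. Array medians were close to each other and the lowest correlation between any pair of arrays was 0.965. The source names of 13 WT smoke mice call them BENaC, against their titles and genotype entries, and groups follow the titles. 1 mouse was relabelled WT by the study from its Scnn1b level. The Scnn1b difference between genotypes is therefore not an independent check of the labels and is given as a description. 1 mouse, the WT smoke female 5-day replicate 2, lay apart from its group for 4 of the 9 genes. Its mean over 4 lymphocyte markers was 6.13 against 7.36 to 7.85 in the other 4 mice of its group, and over 4 neutrophil markers 8.41 against 6.71 to 7.30. Values without this mouse are given where they change a call. Skeletal muscle markers were high in 2 WT mice, with list means of 9.42 and 9.52 against at most 4.75 in the other mice. Without either of them no count of the 9 genes changed.

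The promoters of the 4 genes that differed by genotype at both durations (Scnn1b, Scnn1g, Cftr and Slc26a4) are shown as the DNA next to the starts of these genes. Each is the 250 bases before the start in RefSeq, build GRCm38.p6, 5′ to 3′ on the gene's own strand, at chr7:121864788-121865037 for Scnn1b (plus strand), chr7:121734229-121734478 for Scnn1g (plus strand), chr6:18170437-18170686 for Cftr (plus strand) and chr12:31559985-31560234 for Slc26a4 (minus strand). The Scnn1b window is that of the endogenous gene, and the promoter of the transgene is not shown. Capitals mark matches to any of 4 motifs searched on both strands.
Scnn1b: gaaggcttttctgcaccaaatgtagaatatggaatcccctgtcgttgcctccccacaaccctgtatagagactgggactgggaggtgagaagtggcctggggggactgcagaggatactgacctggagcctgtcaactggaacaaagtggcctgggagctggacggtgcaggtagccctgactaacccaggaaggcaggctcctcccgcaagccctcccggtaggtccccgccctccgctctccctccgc
Scnn1g: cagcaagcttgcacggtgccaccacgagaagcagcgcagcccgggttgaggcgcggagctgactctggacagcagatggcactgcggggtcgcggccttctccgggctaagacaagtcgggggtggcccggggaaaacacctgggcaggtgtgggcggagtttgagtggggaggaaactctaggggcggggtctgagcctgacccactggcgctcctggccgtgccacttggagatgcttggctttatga
Cftr: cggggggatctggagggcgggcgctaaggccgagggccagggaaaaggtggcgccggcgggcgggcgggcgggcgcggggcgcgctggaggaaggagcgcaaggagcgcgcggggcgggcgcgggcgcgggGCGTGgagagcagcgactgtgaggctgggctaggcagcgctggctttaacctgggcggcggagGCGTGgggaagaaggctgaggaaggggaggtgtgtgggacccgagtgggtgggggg
Slc26a4: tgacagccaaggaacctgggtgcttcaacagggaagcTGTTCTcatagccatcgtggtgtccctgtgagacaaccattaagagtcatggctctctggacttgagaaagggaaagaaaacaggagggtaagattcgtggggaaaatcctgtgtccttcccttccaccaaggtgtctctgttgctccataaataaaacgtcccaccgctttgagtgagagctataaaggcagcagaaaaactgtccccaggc

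The motifs were the STAT site (TTC and GAA with 4 bases between them), GCGTG of the aryl hydrocarbon receptor core, TGACNNNGC of the antioxidant response element core and TGTTCT, a part of the glucocorticoid receptor site. The Cftr window held 2 GCGTG matches, 119 and 56 bases before the start, in a stretch of 76.4% GC. GCGTG was present in 28.2% of 32851 promoters of the same length. The Slc26a4 window held 1 TGTTCT, 213 bases before the start, a motif found in 16.1% of promoters. The STAT site (5.85% of promoters) and TGACNNNGC (10.2%) had no match in these 4 windows. The Scnn1b and Scnn1g windows, whose genes are neighbours on chromosome 7, held none of the 4 motifs, nor did those of Slc26a9 and Ano1. Scnn1a, Nedd4l and Atp12a had no entry in the table of 6 matched genes. A match is a description of letters and not of a bound site.

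Among the 9 genes, 7 lay above the median of their array in all 79 mice, Slc26a4 in 75 and Atp12a in 0. Levels are on the log2 intensity scale and are compared for a gene with itself only, since probe sets differ. The spread between mice of 1 group was small for most of them, with a pooled SD of 0.0931 for Atp12a, 0.0982 for Ano1, 0.108 for Nedd4l, 0.119 for Scnn1a, 0.120 for Scnn1b, 0.163 for Scnn1g and 0.172 for Slc26a9, against a median of 0.160 over all genes. Cftr varied more, at 0.262, and Slc26a4 stood apart at 1.115.

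**Figure D1:**
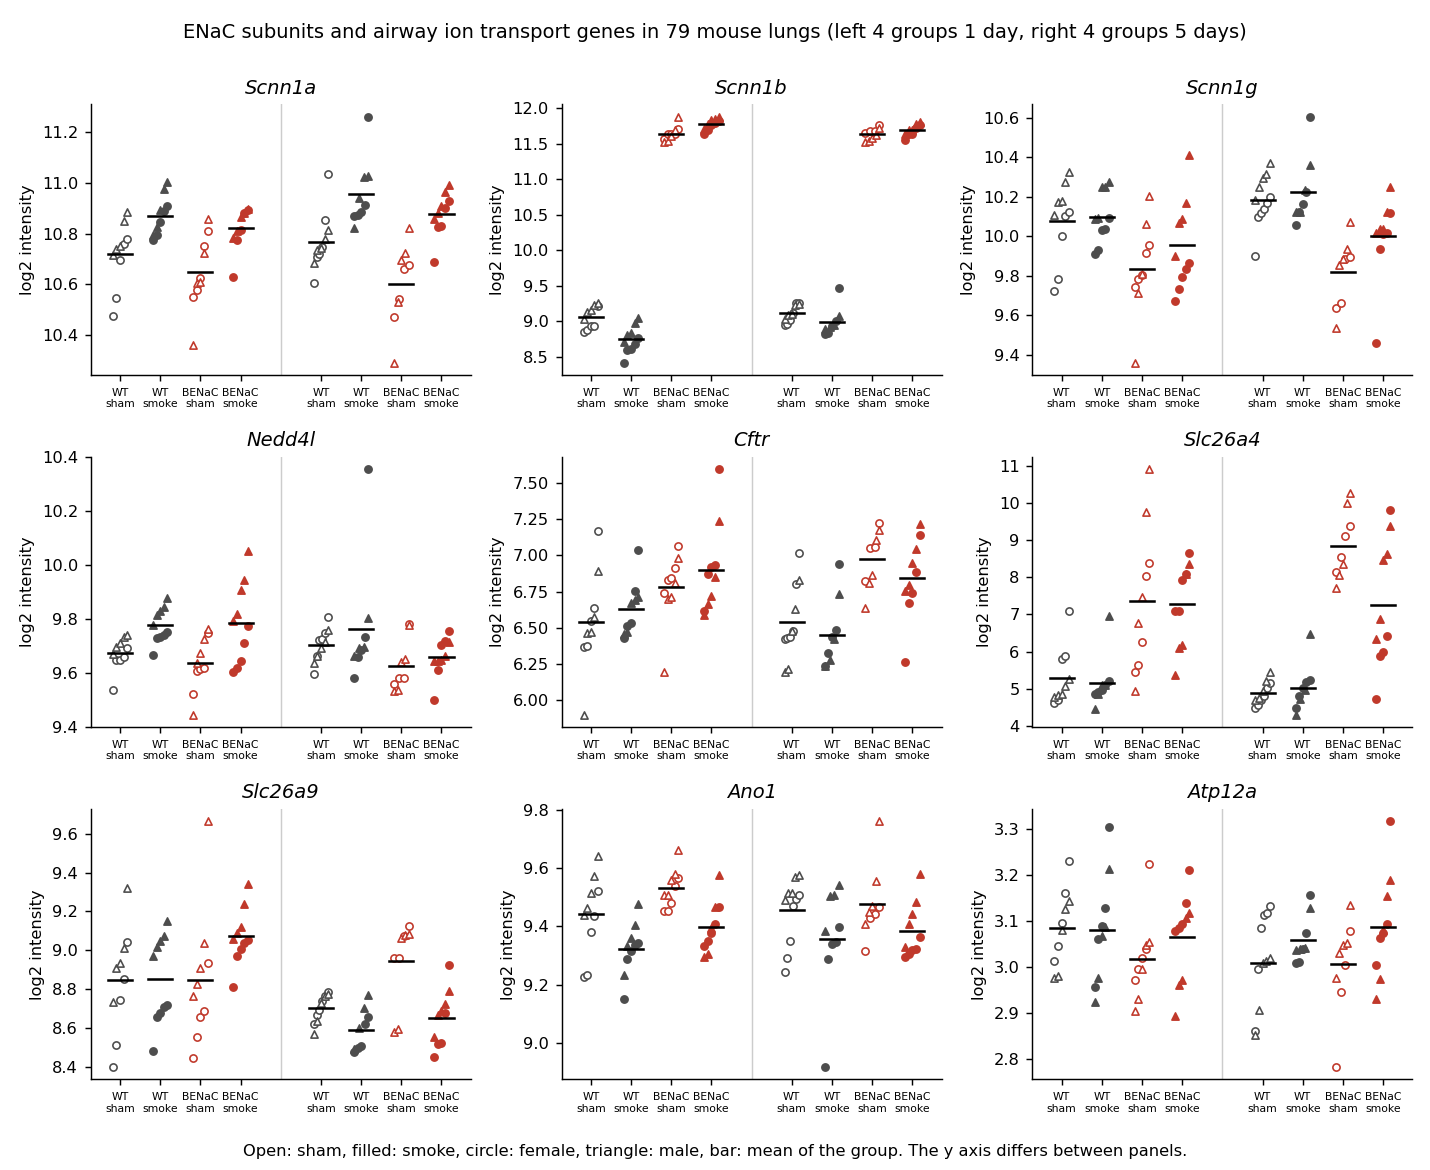
Log2 intensity of the 9 genes in each of 79 mice, with 1 panel a gene, grey for WT, red for βENaC, open symbols for sham, filled symbols for smoke, circles for females, triangles for males and a bar at the mean of each group of 9 to 11 mice. The βENaC mice separate fully from WT for Scnn1b, spread from 4.71 to 10.9 for Slc26a4, and overlap WT for the other 7 genes.

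Genotype. In βENaC lungs the transgene's own gene Scnn1b and the exchanger Slc26a4 were several-fold higher and the γ subunit Scnn1g was lower, at both durations. Cftr was modestly higher at both, with a marginal call at 1 day. At 1 day, 4 of the 9 genes passed the test (limma, adjusted p below 0.05 over all 31350 genes), against 5.87% of all genes, and at 5 days 6 of 9, against 10.2%. Scnn1b and Slc26a4 also passed a 1.3-fold threshold at 1 day, and Scnn1b, Slc26a4 and Cftr did so at 5 days, against 1.55% and 2.53% of all genes. All of these counts include Scnn1b, the transgene's own gene, whose calls were set by the design and are a description only. Differences are coded as βENaC minus WT and come from an additive model with exposure and sex. Within single arms the shares of all genes called were 1.4% (sham) and 2.6% (smoke) for genotype and 3.66% (WT) and 3.43% (βENaC) for exposure at 1 day, and 5.51%, 1.66%, 2.16% and 1.81% in the same order at 5 days. In whole lung RNA, fewer cells of a type and less RNA for each cell cannot be told apart.

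Scnn1b encodes the β subunit. At 1 day its level was 9.06 ± 0.15 (SD, n = 10) in WT sham and 8.75 ± 0.18 (SD, n = 10) in WT smoke mice, and 11.64 ± 0.10 (SD, n = 10) in βENaC sham and 11.77 ± 0.07 (SD, n = 10) in βENaC smoke mice. At 5 days the same groups had 9.12 ± 0.12 (SD, n = 11), 8.99 ± 0.20 (SD, n = 9), 11.64 ± 0.08 (SD, n = 9) and 11.69 ± 0.08 (SD, n = 10). All 40 WT mice lay between 8.42 and 9.47 and all 39 βENaC mice between 11.52 and 11.88. The difference was 2.80 (SE 0.05) at 1 day, a 6.96-fold excess, and 2.61 (SE 0.04) at 5 days, a 6.1-fold excess. The array row holds endogenous and transgenic message together.

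Scnn1g, the γ subunit, was lower in βENaC lungs by 0.19 at 1 day (95% interval -0.30 to -0.09, adjusted p = 0.02) and by 0.31 at 5 days (-0.41 to -0.20, adjusted p = 6.51e-05). At 5 days WT sham mice ran from 9.90 to 10.37 with a median of 10.19, and βENaC sham mice from 9.54 to 10.07 with a median of 9.88. 7 of 9 βENaC sham mice lay below the lowest WT sham mouse. Within sham mice the 5-day difference was -0.38 (SE 0.07, adjusted p = 0.00066), and within smoke mice -0.23 (SE 0.07, adjusted p = 0.106). By mouse, the level was below the WT mean of the same exposure and sex in all but 2 of 20 βENaC mice at 1 day and all but 1 of 19 at 5 days.

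Scnn1a, the α subunit that ENaC needs in order to conduct, differed little by genotype. It was -0.06 (SE 0.04, adjusted p = 0.397) at 1 day and -0.12 (SE 0.04, adjusted p = 0.0433) at 5 days. The 5-day call was lost without the WT smoke female replicate 2 (-0.11, adjusted p = 0.0666). Nedd4l, which marks ENaC for removal from the membrane, was -0.01 (interval -0.07 to 0.04) and -0.09 (-0.17 to -0.00, adjusted p = 0.203).

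Slc26a4 encodes pendrin, which exchanges chloride for bicarbonate and other anions at the apical membrane. It was 2.10 higher in βENaC lungs at 1 day (SE 0.37, interval 1.35 to 2.85, adjusted p = 0.000192), a 4.3-fold difference, and 3.07 higher at 5 days (SE 0.33, interval 2.39 to 3.74, adjusted p = 1.62e-08), an 8.39-fold difference. The 2 estimates were not shown to differ, with a genotype by duration term of 0.96 (interval -0.05 to 1.98, adjusted p = 0.821). In 5-day sham mice the 6 WT females were at 4.49, 4.80, 4.57, 5.16, 5.02 and 4.70 and the 5 WT males at 5.45, 5.21, 4.93, 4.75 and 4.69. The 4 βENaC sham females were at 9.11, 8.53, 9.37 and 8.14, and the 5 males at 8.36, 10.0035, 10.26, 7.71 and 8.06. Every βENaC sham mouse at 5 days was above every WT sham mouse, a difference of 3.90 (SE 0.43, adjusted p = 8.46e-08).

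The 5-day βENaC smoke mice were scattered instead. Females were at 4.71, 6.41, 9.80, 5.89 and 5.99 and males at 6.33, 8.47, 6.88, 8.62 and 9.36. 6 of these 10 mice lay below the lowest βENaC sham mouse, and 5 of 10 lay above the highest WT smoke mouse. Slc26a4 was 2.20 higher in βENaC than in WT within smoke (SE 0.44, adjusted p = 0.00292), while smoke minus sham within βENaC was -1.57 (SE 0.44, adjusted p = 0.0539) and within WT 0.14 (SE 0.43, adjusted p = 0.948). The exposure by genotype term at 5 days was -1.75 (interval -3.00 to -0.50, unadjusted p = 0.00721, adjusted p = 1).

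At 1 day the 10 βENaC sham mice ran from 4.95 to 10.9 with a median of 7.11, and the 10 βENaC smoke mice from 5.36 to 8.65 with a median of 7.50. WT sham mice ran from 4.61 to 7.10 with a median of 4.97 and WT smoke mice from 4.46 to 6.95 with a median of 5.03. Genotypes overlapped within both exposures, with differences of 2.07 within sham (adjusted p = 0.0343) and 2.14 within smoke (adjusted p = 0.0197). In order of mean, the 5-day βENaC sham group at 8.84 ± 0.90 (SD, n = 9) came first, the other 3 βENaC groups lay together at 7.25 to 7.36, and the 4 WT groups lay at 4.89 to 5.29 with overlapping spreads.

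Cftr, the cyclic AMP regulated chloride and bicarbonate channel, was higher in βENaC lungs by 0.26 at 1 day (SE 0.08, adjusted p = 0.0488) and by 0.42 at 5 days (SE 0.08, adjusted p = 0.0002, 1.33-fold). The 1-day call is marginal and was lost when any of 29 of the 40 mice was left out. It was also lost in an ordinary linear model (adjusted p = 0.0624), with centring on the array median (0.0644) and with renewed quantile normalization (0.0759). At 5 days WT sham mice ran from 6.20 to 7.02 with a median of 6.48, and βENaC sham mice from 6.64 to 7.22 with a median of 7.05. 5 of the 9 βENaC sham mice lay above every WT sham mouse. The 5-day difference was 0.44 (SE 0.11, adjusted p = 0.0107) within sham and 0.39 (SE 0.11, adjusted p = 0.0573) within smoke. By mouse, 17 of 20 βENaC mice at 1 day and 18 of 19 at 5 days were above the WT mean of their exposure and sex.

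Slc26a9, a chloride transporter of airway and stomach epithelium, was 0.11 (SE 0.06, adjusted p = 0.366) at 1 day and 0.15 (SE 0.05, adjusted p = 0.0296) at 5 days. The 5-day difference was 0.24 (SE 0.06, adjusted p = 0.0162) within sham and 0.06 (SE 0.07, adjusted p = 0.779) within smoke. Ano1, the calcium-activated chloride channel also found in smooth muscle, was 0.08 (SE 0.03, adjusted p = 0.107) and 0.01 (interval -0.06 to 0.08). Atp12a, the non-gastric proton pump that acidifies airway liquid in some species, was -0.04 (interval -0.10 to 0.02) and 0.01 (-0.05 to 0.08), and stayed between 2.78 and 3.32 in all 79 mice.

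**Figure D2:**
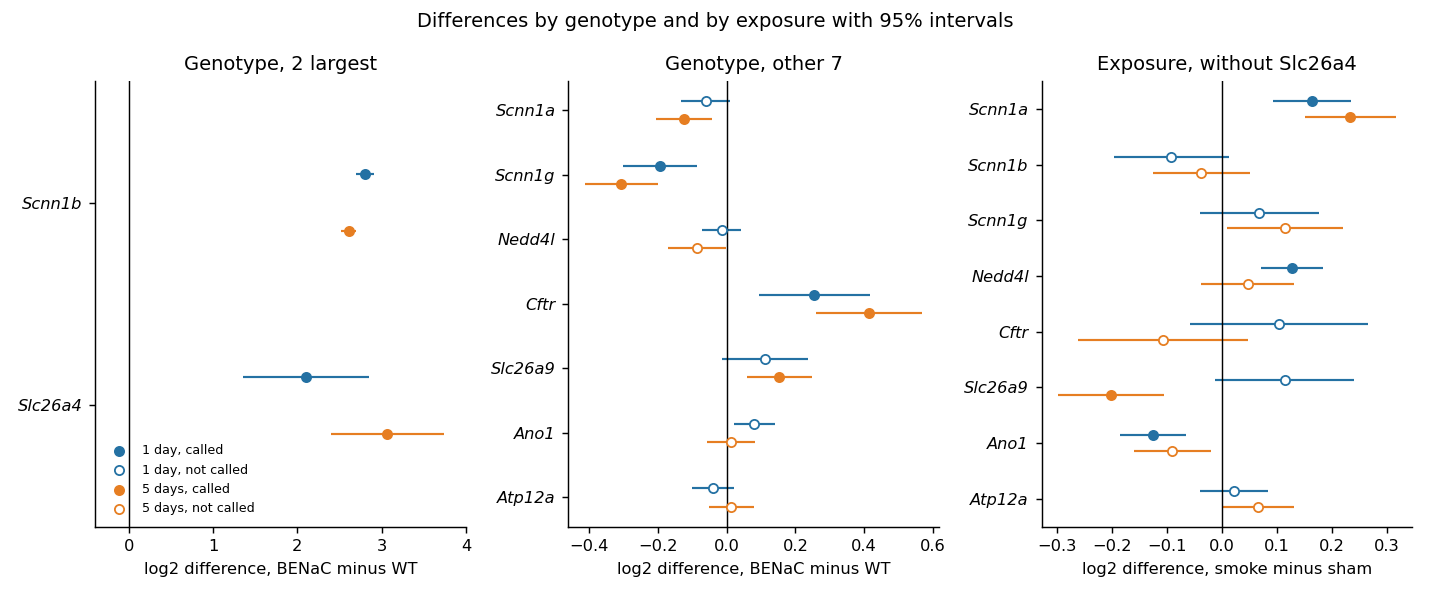
Log2 differences by genotype (βENaC minus WT, left and middle panels with different scales) and by exposure (smoke minus sham, right panel, Slc26a4 left out for its wide interval), each with its 95% interval, blue for 1 day, orange for 5 days and filled where the adjusted p was below 0.05. Scnn1b and Slc26a4 lie beyond 2 on the log2 scale, and the largest exposure difference shown is 0.23, for Scnn1a at 5 days.

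Markers beside the genotype differences. Of 7 goblet cell markers, Muc5ac, Muc5b, Agr2, Tff2 and Itln1 were called higher in βENaC mice at both durations, from Tff2 at 0.46 (adjusted p = 0.048) to Itln1 at 2.04 (adjusted p = 1.6e-16) at 1 day, and Foxa3 and Spdef were not called at either. The mean over the list ran from 4.34 to 5.27 in WT sham and from 5.43 to 6.30 in βENaC sham mice at 5 days, with no overlap. At 1 day the goblet list ran from 4.29 to 5.59 in WT sham and from 5.31 to 6 in βENaC sham mice, with overlap. Of 4 alveolar macrophage markers, Marco (0.84), Chil3 (0.79) and Mrc1 (0.63) were higher in βENaC at 5 days, also so at 1 day, and Siglecf was not called for genotype. Their list mean ran from 8.23 to 8.50 in WT sham and from 8.74 to 9.63 in βENaC sham mice at 5 days. In βENaC smoke mice at 5 days it ran from 8.10 to 9.63. At 1 day it ran from 8.11 to 8.41 in WT sham and from 7.955 to 9.62 in βENaC sham mice, with overlap. Of 4 club cell markers, Cyp2f2 (-0.39), Aldh1a1 (-0.28) and Scgb1a1 (-0.07) were lower at 5 days, and Hp was not called (-0.04). Of 4 alveolar type 1 markers Hopx (-0.29) and Ager (-0.12) were lower at 5 days, and Akap5 (-0.10) and Pdpn (0.04) were not called. Of 5 smooth muscle markers Cnn1 (-0.61), Actg2 (-0.37) and Des (-0.27) were lower at 5 days, and Myh11 (-0.12) and Acta2 (0.01) were not called. Of 5 alveolar type 2 markers Lamp3 (0.13) and Abca3 (0.08) were higher at 5 days, with Sftpa1, Sftpb and Sftpc not called, and of 4 endothelial markers Cdh5 (-0.12) was lower, with Pecam1, Tie1 and Vwf not called. Of 6 ciliated cell markers Dnah5 was higher at 1 day (0.21) and Tekt1 lower at 5 days (-0.15). None of 4 neutrophil and 4 lymphocyte markers was called for genotype at either duration. The 4 ionocyte markers gave list means of 4.17 to 4.41 in WT sham and 4.16 to 4.55 in βENaC sham mice at 5 days. Moxd1 alone was called (0.23, adjusted p = 0.0111), at a low signal with a mean of 3.14 over all mice. The part of these cell types in the differences of the 9 genes was not tested.

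Genes most like Slc26a4 over the 16 group means were Arg1 (r = 0.986), Mmp12 (0.983) and Rnase2a (0.981). After each group's mean was subtracted, the closest over 79 mice were Mmp12 (0.916), Retnla (0.910) and Slc5a1 (0.897). Mmp12 is a macrophage elastase, and Arg1 and Retnla are known marks of alternatively activated macrophages. Rnase2a and Slc5a1 are given no role here, and the cell source of the Slc26a4 signal was not tested. The points share genotype and exposure in the first measure and the lung sample in both, and no test was made.

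**Figure D3:**
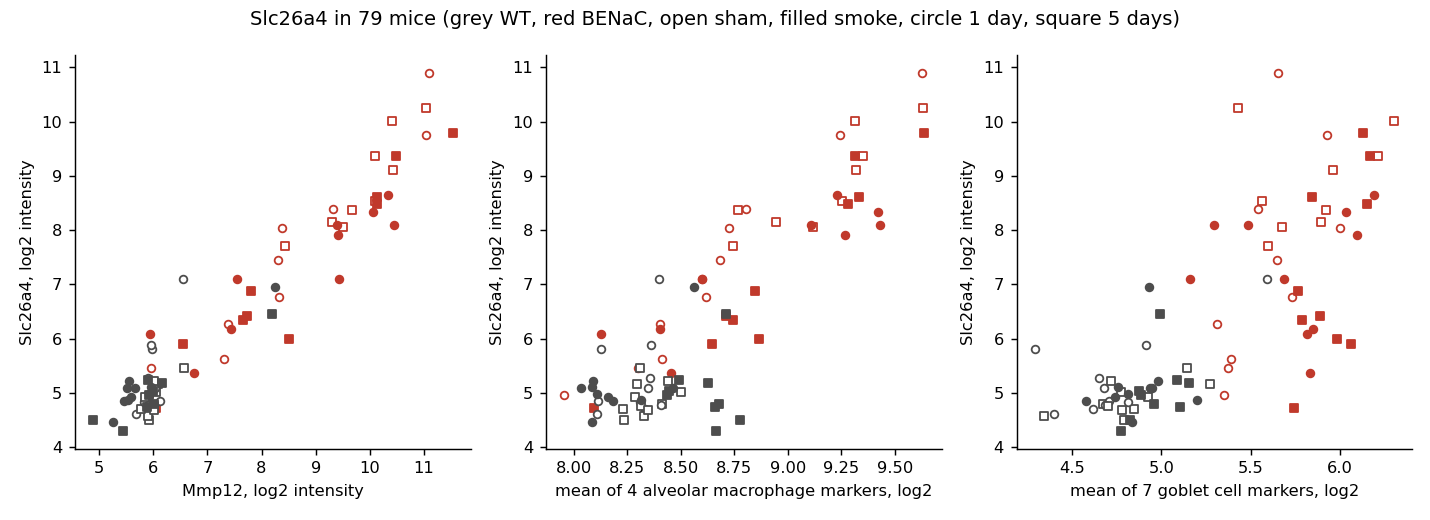
Slc26a4 log2 intensity in 79 mice against Mmp12, the mean of 4 alveolar macrophage markers and the mean of 7 goblet cell markers, with grey for WT, red for βENaC, open for sham, filled for smoke, circles for 1 day and squares for 5 days. Slc26a4 and Mmp12 had r = 0.916 over all 79 mice after subtraction of the group means. No r was computed within a genotype, and no WT mouse exceeds 7.10 for Slc26a4.

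For the other genes the most alike over group means were Selenbp1 (0.955), Mknk2 (0.950) and Akr1c14 (0.949) for Scnn1a, Pdlim2 (0.938), Ager (0.920) and Popdc3 (0.915) for Scnn1g, Pcsk7 (0.925), Robo4 (0.923) and Zc3h3 (0.918) for Nedd4l, and Ly6i (0.917), Itih4 (0.898) and Igf2bp3 (0.897) for Cftr. They were Bak1 (0.929), Bgn (0.923) and Lpp (0.918) for Slc26a9, and Ralb (0.934), Pkhd1l1 (0.921) and Lancl2 (0.907) for Ano1. Cd177 (0.984), Gp2 (0.975) and Itln1 (0.970) came closest to Scnn1b, whose group means fall into 2 separate sets by genotype. Atp12a, at low signal, had Six3 (0.831), Gm11961 (0.810) and Igfl3 (0.784).

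Within groups, over 79 mice, the closest genes were Sult1a1 (0.808), Selenbp1 (0.785) and Ppl (0.763) for Scnn1a, Ezr (0.618), Fam167a (0.614) and Arfgap3 (0.585) for Scnn1b, and Boc (0.789), Ramp2 (0.781) and Hopx (0.778) for Scnn1g. They were Sorbs3 (0.786), Dock9 (0.775) and Cilk1 (0.768) for Nedd4l, Rasl11a (0.675), Mmp8 (0.633) and Cct6a (0.627) for Cftr, Dpp9 (0.768), Larp1 (0.722) and N4bp1 (0.721) for Slc26a9, and Ecscr (0.726), Cd34 (0.640) and Cnpy2 (0.626) for Ano1. The best for Atp12a was 1700116B05Rik at 0.416. Among the 9 genes themselves, Scnn1g and Nedd4l (0.615), Slc26a4 and Slc26a9 (0.544) and Scnn1a and Scnn1g (0.523) varied together, and Slc26a4 ran against Scnn1g (-0.576) and Scnn1a (-0.472). These values describe mice that share arrays and tissue sampling, and carry no test.

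Exposure. With smoke, every call among the 9 genes was below 1.3-fold in size (1.08% of all genes were called past that size at 1 day and 1.16% at 5 days). The Slc26a4 difference at 5 days was 1.62-fold lower with smoke, with an adjusted p of 0.252, and was not called. At 1 day Scnn1a and Nedd4l were higher and Ano1 lower in smoke than in sham mice, 3 of 9 genes against 9.45% of all genes. At 5 days Scnn1a was higher and Slc26a9 lower, 2 of 9 genes against 6.53%. Scnn1a was thus called at both durations, while the other 3 were called at 1 of them, which by itself does not show a difference between durations.

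Scnn1a rose by 0.16 at 1 day (SE 0.04, adjusted p = 0.00152) and by 0.23 at 5 days (SE 0.04, adjusted p = 0.000142). At 1 day sham mice ran from 10.36 to 10.89 with a median of 10.72, and smoke mice from 10.63 to 11.004 with a median of 10.86. At 5 days they ran from 10.29 to 11.04 (median 10.71) and from 10.69 to 11.26 (median 10.90). Although the ranges overlapped, 19 of 20 smoke mice at 1 day and 19 of 19 at 5 days were above the sham mean of their genotype and sex. The 5-day difference was 0.28 (SE 0.06, adjusted p = 0.00494) within βENaC, where 9 of 10 smoke mice lay above every sham mouse, and 0.19 (SE 0.06, adjusted p = 0.0702) within WT. The genotypes were not shown to differ in this response, with an exposure by genotype term of 0.08 (interval -0.08 to 0.25) at 5 days and 0.02 (-0.12 to 0.17) at 1 day.

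Nedd4l rose by 0.13 at 1 day (SE 0.03, adjusted p = 0.00214), from a sham median of 9.67 to a smoke median of 9.78, and 11 of 20 smoke mice lay above every sham mouse. At 5 days its difference was 0.05 (interval -0.04 to 0.13). Ano1 fell by 0.13 at 1 day (SE 0.03, adjusted p = 0.00357), from a sham median of 9.51 to a smoke median of 9.35. Only 1 of 20 smoke mice at 1 day and 3 of 19 at 5 days lay above the sham mean of their genotype and sex for Ano1, although the 5-day difference of -0.09 (SE 0.03, adjusted p = 0.123) was not called. For neither gene was a difference between durations called, with exposure by duration terms of -0.08 (interval -0.18 to 0.02) and 0.04 (-0.05 to 0.12).

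For the other genes no exposure call was made. Scnn1g was 0.07 (interval -0.04 to 0.18) at 1 day and 0.11 (0.01 to 0.22, adjusted p = 0.223) at 5 days, and Cftr 0.10 (-0.06 to 0.27) and -0.11 (-0.26 to 0.05). Slc26a4 was -0.10 (-0.85 to 0.65) at 1 day and -0.70 (-1.37 to -0.02, adjusted p = 0.252) at 5 days, intervals that leave room for a change of over 1.3-fold. Atp12a was 0.02 (-0.04 to 0.08) at 1 day and 0.06 (0.00 to 0.13, unadjusted p = 0.0499, adjusted p = 0.274) at 5 days, where 14 of 19 smoke mice were above the sham mean of their genotype and sex.

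Slc26a9 fell with smoke at 5 days by 0.20 (SE 0.05, adjusted p = 0.00469). Sham mice ran from 8.57 to 9.12 with a median of 8.76, smoke mice from 8.45 to 8.92 with a median of 8.62, and all but 2 of 19 smoke mice were below the sham mean of their genotype and sex. At 1 day the difference was 0.11 in the other direction (SE 0.06, adjusted p = 0.296), with 16 of 20 smoke mice above that mean. The exposure by duration term for Slc26a9 was -0.32 (SE 0.08, interval -0.47 to -0.16, adjusted p = 0.0195), the 1 of 9 genes called for this term, against 1.49% of all genes. The call was lost in the model with exposure, duration and their interaction alone (-0.30, adjusted p = 0.127). In βENaC mice alone smoke minus sham was 0.22 at 1 day (SE 0.09, adjusted p = 0.15) and -0.30 at 5 days (SE 0.07, adjusted p = 0.00822). In WT mice it was 0.00 (SE 0.09) and -0.11 (SE 0.06, adjusted p = 0.488). The genotype by exposure difference at 5 days was -0.20 (unadjusted p = 0.0345, adjusted p = 1).

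Scnn1b. In WT lungs Scnn1b fell after 1 day of smoke, and the response differed from that of βENaC lungs, where its level was slightly higher with smoke without passing the test. The 5 WT sham females were at 8.93, 8.86, 8.94, 8.88 and 9.22 and the 5 WT smoke females at 8.68, 8.42, 8.77, 8.62 and 8.61. The 5 WT sham males were at 9.26, 9.14, 9.03, 9.16 and 9.23 and the 5 WT smoke males at 8.99, 8.80, 9.05, 8.71 and 8.84. All 5 smoke females were below all 5 sham females, 4 of 5 smoke males were below all sham males, and 8 of the 10 smoke mice lay below the lowest WT sham mouse. Within WT the difference was -0.31 (SE 0.05, adjusted p = 0.000333) and within βENaC 0.13 (SE 0.05, adjusted p = 0.195). The exposure by genotype term was 0.44 (SE 0.08, interval 0.29 to 0.60, adjusted p = 0.0186), the 1 of 9 genes called at 1 day, against 0.00638% of all genes, which is 2 of 31350. At 5 days the differences were -0.13 within WT (SE 0.06, adjusted p = 0.341) and 0.05 within βENaC (SE 0.06, adjusted p = 0.788), with a term of 0.18 (interval 0.01 to 0.35, unadjusted p = 0.0408, adjusted p = 1). Since the row cannot separate endogenous from transgenic message, the term does not tell how the endogenous message behaved in βENaC lungs.

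**Figure D4:**
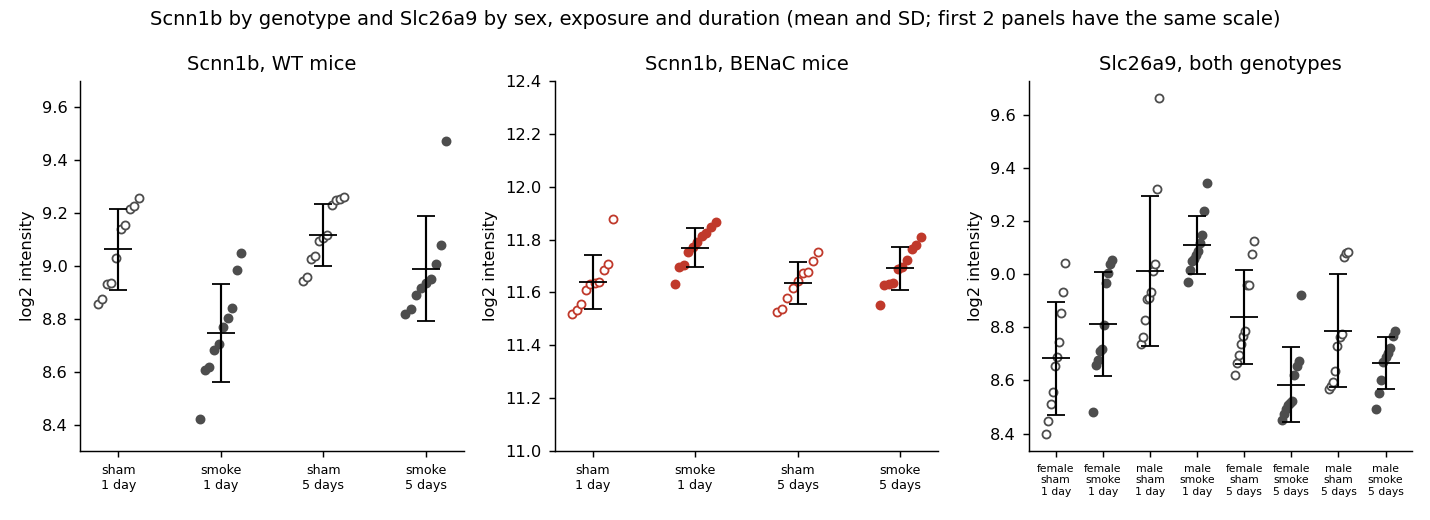
Left and middle, Scnn1b log2 intensity by exposure and duration in WT and in βENaC mice on axes of the same span; right, Slc26a9 by sex, exposure and duration over both genotypes, with points for mice, open for sham and filled for smoke, and bars for the mean and SD. In WT mice at 1 day 8 of 10 smoke mice lie below every sham mouse for Scnn1b, and Slc26a9 at 1 day is higher in males than in females.

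Markers beside the exposure differences. Of 6 ciliated cell markers, Dnah5 (-0.38, adjusted p = 8.24e-06), Ccdc39 (-0.31, adjusted p = 0.000269) and Cfap126 (-0.17, adjusted p = 0.0259) were lower with smoke at 1 day, and Foxj1, Rsph1 and Tekt1 were not called. Of 4 club cell markers, Aldh1a1, an aldehyde dehydrogenase, was higher with smoke at both durations (0.19 and 0.29), Hp, haptoglobin, was lower at 1 day (-0.18, adjusted p = 0.0291), and Cyp2f2 and Scgb1a1 were not called. Of 4 neutrophil markers Retnlg was lower at 1 day (-0.66, adjusted p = 0.0237), and Cxcr2 (-0.51), S100a8 (-0.45) and S100a9 (-0.45) were not called. Their list mean at 1 day ran from 6.53 to 9.37 in WT sham and from 6.33 to 8.32 in WT smoke mice, and from 6.69 to 9.04 in βENaC sham and from 6.99 to 8.25 in βENaC smoke mice. Of 4 endothelial markers Cdh5 was higher at 1 day (0.14, adjusted p = 0.00297), and Pecam1 (-0.11) and Tie1 (-0.15) were lower at 5 days. None of 5 smooth muscle and 4 lymphocyte markers was called for exposure at either duration. Among 4 ionocyte markers Stap1 was lower at both (-0.46 and -0.43), with Foxi1 and Ascl3 not called. Over all mice Stap1 had a mean of 7.07, against 3.49 for Foxi1, 3.40 for Ascl3 and 3.14 for Moxd1, which lie below the array medians. The cell source of the Stap1 signal was not tested. Of 4 alveolar macrophage markers Siglecf was lower at 5 days (-0.27, adjusted p = 0.0396), and Chil3, Marco and Mrc1 were not called. Of 5 alveolar type 2 cell markers Lamp3 was lower at both durations (-0.09 and -0.15) and Abca3 at 5 days (-0.15). Of 4 alveolar type 1 cell markers Akap5 (-0.13) and Pdpn (-0.12) were lower at 1 day, with Ager and Hopx not called. Of 7 goblet cell markers Tff2 at 1 day (0.62) and Agr2 at 5 days (0.67) were higher. Their part in the responses of Scnn1a, Scnn1b, Nedd4l, Ano1 and Slc26a9 was not tested.

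At 5 days, 0 of 31350 genes were called for the exposure by genotype term (limma), with 1197 at an unadjusted p under 0.05. At an unadjusted p under 0.05, 3 of the 9 genes passed it, Scnn1b, Slc26a4 and Slc26a9. For exposure by sex none of the 9 genes was called at either duration, against 0.00638% of all genes at 1 day and 0% at 5 days (limma, 1085 genes at an unadjusted p under 0.05). Nedd4l at 1 day (0.12, interval 0.01 to 0.23) was the 1 of 9 with an unadjusted p under 0.05, at 0.0355. For genotype by duration 0 of all genes were called (limma), with 1904 at an unadjusted p under 0.05. Scnn1b was among these (-0.19, interval -0.33 to -0.06, adjusted p = 0.759), and no other of the 9 genes was.

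Sex. At 1 day 3 of 9 genes were higher in males, against 9.89% of all genes called and 7.82% higher in males. Slc26a9 was 0.31 higher (SE 0.06, adjusted p = 0.000567), with females at 8.40 to 9.05 and a median of 8.71 and males at 8.74 to 9.66 and a median of 9.04. Scnn1g was 0.20 higher (SE 0.05, adjusted p = 0.0115) and Nedd4l 0.11 higher (SE 0.03, adjusted p = 0.00798). The Nedd4l call was lost when the values were quantile normalized again (0.07, adjusted p = 0.13). At 5 days 1 of 9 genes was called, against 0.616% of all genes. This was Ano1, 0.15 higher in males (SE 0.03, adjusted p = 0.0244), with a female median of 9.34 and a male median of 9.50. At 5 days Slc26a9 had a median of 8.67 in females and 8.70 in males, with a difference of 0.00 (interval -0.09 to 0.10). The sex by duration term for Slc26a9 was -0.31 (SE 0.08, adjusted p = 0.0354), against 0.654% of all genes called, and the call was lost without any of 7 of the 79 mice and in the model with sex, duration and their interaction alone (adjusted p = 0.136).

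Other genes of airway ion and fluid transport. Around the 9 genes, 52 further genes of the pathway were measured, and Nr3c2, Stk39 and Aqp4 had no row. Bpifa1, an inhibitor of ENaC, was lower in βENaC lungs at both durations, and the receptors P2ry2 and Adora2b were higher at both. At 1 day 12 of the 52 were higher and 2 lower in βENaC, against 3.58% and 2.29% of all genes, with a median difference of 0.0152 beside 0.0024 over all genes. At 5 days 14 were higher and 10 lower, against 4.85% and 5.33%, with a median of 0.0153 beside -0.0116. With smoke 10 were higher and 4 lower at 1 day, against 5.03% and 4.43%, and 5 higher and 7 lower at 5 days, against 3.17% and 3.37%. The list was drawn up with earlier results of these data known.

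Bpifa1, a secreted airway protein that inhibits ENaC, was lower in βENaC lungs by 1.08 at 1 day (SE 0.11, adjusted p = 7.51e-09) and by 1.14 at 5 days (SE 0.12, adjusted p = 6.02e-09), and higher with smoke at 5 days (0.45, SE 0.12, adjusted p = 0.0122). It was the only one of 4 inhibitors past 1.3-fold. Of 5 proteases that activate ENaC, 3 were higher at 1 day and 2 higher and 2 lower at 5 days in βENaC, none past 1.3-fold. Named after their values were seen, the lower ones were Prss8 (-0.22) and Tmprss2 (-0.22) and the higher ones St14 (0.17) and Furin (0.18). Usp2, a deubiquitinase known to act on ENaC, was -0.41 for genotype (adjusted p = 0.000197) and 0.51 for smoke (adjusted p = 9.98e-06) at 5 days. Of the 8 corticosteroid and kinase regulators, none passed 1.3-fold.

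Of 4 nucleotide signalling genes 2 were higher in βENaC lungs at 1 day, P2ry2 and Adora2b, and all 4 at 5 days. The ATP and UTP receptor P2ry2 was 0.45 higher at both durations (adjusted p = 0.000209 and 8.95e-05) and lower with smoke at both (-0.31 and -0.29). The UDP receptor P2ry6 (0.45) and the adenosine receptor Adora2b (0.45) passed 1.3-fold at 5 days, and Panx1 (0.17), an ATP release channel, did not. Aqp3, a water and glycerol channel, was 0.47 higher at both durations, the 1 of 3 measured water channels past 1.3-fold.

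Among 11 other anion channels, exchangers and partners, Clca1, a secreted goblet cell protein that modulates calcium-activated chloride channels, was 2.24 higher in βENaC at 1 day (SE 0.51, adjusted p = 0.0035) and 3.15 higher at 5 days (SE 0.48, adjusted p = 9.53e-06). With smoke Clca1 fell by 1.61 at 5 days (SE 0.48, adjusted p = 0.0317), and its exposure by duration term was -2.75 (adjusted p = 0.0248). Slc26a10, of the family of Slc26a4, was 1.17 and 1.03 higher in βENaC, and lower with smoke at 5 days (-0.52, adjusted p = 0.000337). Of the 6 potassium channel genes, Lrrc26, an accessory subunit of the channel Kcnma1, was -0.75 for genotype at 5 days (adjusted p = 1.55e-08) and Kcnma1 itself -0.39 (adjusted p = 5.5e-05). Kcnma1 had a low signal, with a mean of 4.11 over all mice, below the array medians of 4.44 to 4.55. Lrrc26 was also lower with smoke at 1 day (-0.59, adjusted p = 1.46e-06), with an exposure by duration term of 0.53 (adjusted p = 0.00523). Of the proton pump subunits, Atp6v0d2, which macrophages also use, was 0.97 and 1.03 higher in βENaC, and Atp6v1b1 was lower with smoke at both durations (-0.64 and -0.41) and lower in βENaC at 5 days (-0.50).

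**Figure D5:**
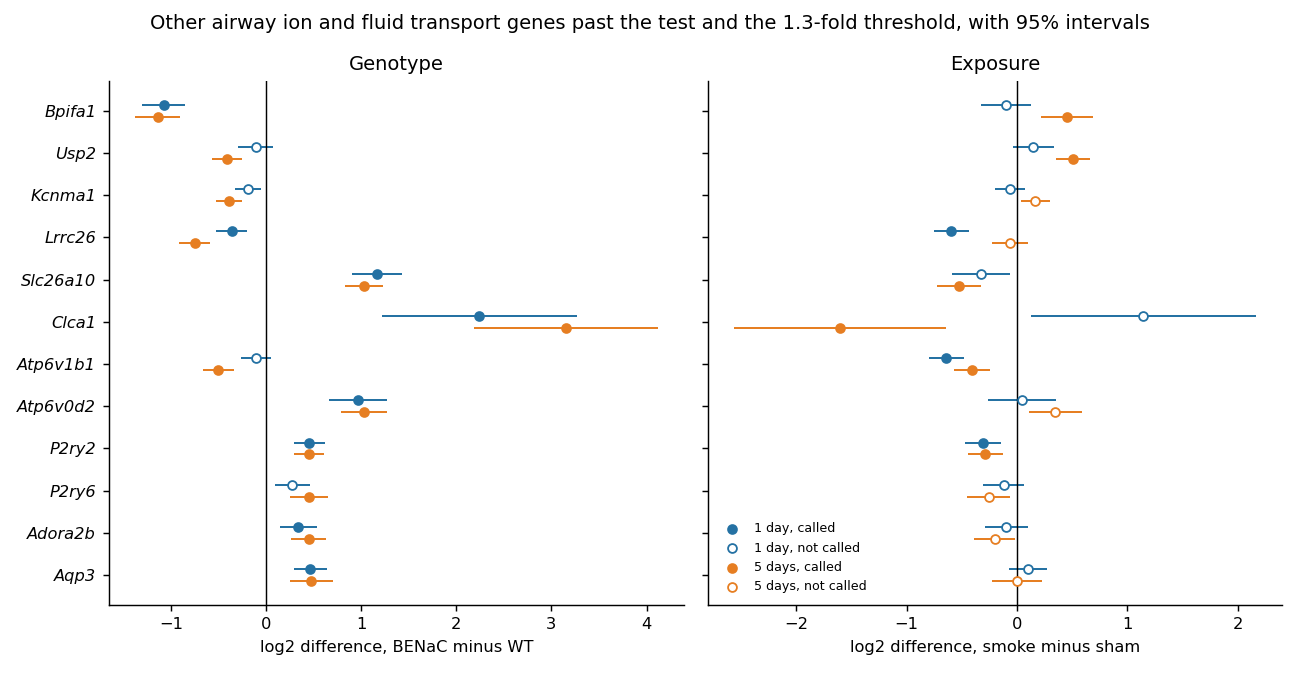
Log2 differences with 95% intervals for the 12 other pathway genes that passed both the test and the 1.3-fold threshold, by genotype (βENaC minus WT, left) and by exposure (smoke minus sham, right), blue for 1 day, orange for 5 days and filled where the adjusted p was below 0.05. Clca1 has the largest genotype differences and widest intervals of these 12, and Bpifa1 lies near -1.1 for genotype at both durations.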

How the data were processed

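RNA from whole lungs of 79 mice was hybridised to Affymetrix moGene2.1 arrays. The authors deposited log2 intensities from robust multi-array averaging (RMA) with GC and probe sequence correction, quantile normalization, median polish and a custom map from probe sets to genes, and removed 1 mislabelled array. The submitters' processing notes name Affymetrix Expression Console 1.4 and Partek 6.6. The genome build was not given in the sources used here. Arrays have no read depth, so precision depends on how many were run. Quantile normalization fixes the distribution of each array, so a shift shared by most genes would not be seen.

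Groups follow the sample titles. Genes were tested with limma 3.58.1 in R 4.3.3 on all 31350 genes, with genotype, exposure and sex as terms at each duration, then with exposure interactions, and in 1 fit of 79 mice with duration interactions. Effects within a genotype or exposure came from group means with sex as a term. Adjusted p-values are Benjamini-Hochberg values over every gene, and a gene was called when that value lay below 0.05. Intervals are 95% intervals of the estimated difference, and SD values give the spread between mice. The scripts were tested on simulated data.

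The 9 genes, the pathway list and the marker lists were chosen with earlier results of these data known. The text names the 9 genes, pathway genes called and past 1.3-fold for genotype or exposure, markers whose list moves with a result, and the 3 genes most correlated with each of the 9 by 2 measures. Where a symbol had several rows, the row with the highest mean was used. The alternatives were an ordinary linear model, centring on the array median, renewed quantile normalization, leaving out the 30% of genes with the lowest mean, array weights, a trended robust prior, a replicate block, the 1.3-fold threshold, 1 fit over all mice, reduced terms and leaving out each mouse.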

Additional observations from a re-analysis of the deposited data

Results flagged for a closer look

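Single mice stood apart from the rest of their group by Dixon's gap criterion in 16 of 144 combinations of gene and group, spread over 8 genes, where chance gives about 5%. The WT smoke female 5-day replicate 2 accounted for 4 of them, at 11.26 for Scnn1a, 9.47 for Scnn1b, 10.36 for Nedd4l and 8.92 for Ano1. Among the ENaC subunits, Scnn1b was 9.22 in the WT sham female 1-day replicate 5, and Scnn1g was 9.46 in the βENaC smoke female 5-day replicate 3 and 9.9 in the WT sham female 5-day replicate 2. Nedd4l was 9.78 in the βENaC sham female 5-day replicate 2, 9.71 in the βENaC smoke male 5-day replicate 4 and 9.67 in the WT smoke female 1-day replicate 5. Slc26a4 was 6.95 in the WT smoke male 1-day replicate 5, the highest of its group. The WT smoke female 1-day replicate 1 was at 8.48 for Slc26a9 and at 9.15 for Ano1. Atp12a was 3.22 in the βENaC sham female 1-day replicate 5, 3.32 in the βENaC smoke female 5-day replicate 4 and 3.13 in the WT smoke male 5-day replicate 5, all low signals.

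Responses differed between groups by an interaction test for 2 of the 9 genes. The exposure response of the Scnn1b row at 1 day differed between genotypes (0.44, adjusted p = 0.0186). This call held without any single mouse, with adjusted p from 0.00674 to 0.0449. In βENaC lungs the row holds endogenous and transgenic message together, so the term does not tell how the endogenous message behaved there. For Slc26a9 the exposure response differed between durations (-0.32, adjusted p = 0.0195), as did the sex difference (-0.31, adjusted p = 0.0354). Neither call held in the model with the variable, duration and their interaction alone (adjusted p = 0.127 and 0.136).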

How the results depend on the processing

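No difference of a member that was called in the main or the alternative fit changed direction. Differences called in neither fit were not checked for direction. Of the recomputed counts of called genes, 99 stayed within 1.5 times and 14 did not. With 1.3-fold also required, the counts became 2 for genotype at 1 day and 3 at 5 days, and 0 for exposure and for sex at both durations and for exposure by duration and sex by duration. Sex by duration (Slc26a9) fell to 0 with centring (adjusted p = 0.0607) or renewed quantile normalization (0.0529), and both it and exposure by duration fell to 0 in the model with that variable, duration and their interaction alone (0.136 and 0.127). Leaving out each mouse gave 3 to 4 for genotype and 3 to 5 for sex at 1 day, 4 to 6 for genotype at 5 days and 0 to 1 for sex by duration. Cftr at 1 day by genotype was the least stable, with adjusted p from 0.0157 to 0.0799 without single mice, and Scnn1a by genotype at 5 days was lost without any of 18 of 39 mice and with array weights (0.0772). Slc26a9 by genotype at 5 days was lost in 1 fit over all mice (0.0681). Apart from the settings named, the causes were not tested. The row with the second highest mean was not run, since each gene has 1 row.

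Same-numbered mice of the same duration had a mean r of 0.0121 over 266 pairs, from -0.276 to 0.538, with 15.8% of pairs above 0.1. Mice with different numbers had a mean r of -0.00273 over 1098 pairs, with 11.7% above 0.1. In all, 24 of 79 mice correlated best with their own number. The numbers were not taken to pair mice, and a weak link by number was not tested further. With the replicate block, sex at 5 days fell to 0 (Ano1, adjusted p = 0.0619), sex by duration to 0 (Slc26a9, 0.0517), and the genotype calls of Cftr at 1 day (0.0573) and Scnn1a at 5 days (0.0682) were lost, while Ano1 by sex at 1 day was gained (0.0452).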
